A study of Rattus norvegicus with 18 samples.

Results

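Cell division genes were measured in rat bone repairing around 3D-printed scaffolds. None of the 35 described here passed the main test, edgeR's quasi-likelihood test, for a difference between scaffolds or between weeks. Another 2 tools called between 0 and 12 of them in a comparison. Where 12 were called, the same tool called 29.3% or 34.2% of all genes. Of 36 listed genes 35 were in the table, which holds 17337 genes: 20 that act in mitosis and its approach, and 15 that act in DNA replication or its start. Membership asked for 10 or more counts in at least 3 of the 18 libraries, which 11833 genes of the table meet. The lowest count of any member in any library was 136 (Gins2), so all 35 passed the filter on low counts. Cenpe is named only.

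A dividing cell first copies its DNA and then segregates it, and these phases use different genes. In G1 and S phase, E2F factors switch on the genes of the replication machinery: the MCM helicase that unwinds the double helix, its loaders and activators, the sliding clamp of DNA polymerase, and the enzymes that supply deoxynucleotides. In G2 and mitosis, the B-MYB complex and FOXM1 act on the genes of cyclin B, CDK1, the mitotic kinases and the spindle. Bone marrow divides intensely through its erythroid, granulocyte and lymphoid precursors, and in a healing fracture osteoprogenitors and chondrocytes divide as well.

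All animals were wild-type rats with a critical-sized defect of the radius, and the tissue was the bone within 1 mm of the scaffold, proximally and distally. Scaffolds were bare polycaprolactone (PCL), PCL with calcium phosphate microparticles (CaP) or PCL with amorphous calcium phosphate chitosan nanoparticles (ACPC-NP), and each was sampled at week 2 and week 6 with 3 libraries. Marrow, after red blood cell lysis and enzymatic digestion, and digested bone gave cells that were pooled before polyadenylated RNA was extracted. The labels do not say if each library of a group is from an animal of its own, so the p-values measure the spread between libraries, which may be technical. Age and sex are not given in the labels used here.

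Total counts ran from 18880604 to 27186587 per library. The 35 members together took 0.569% to 0.851% of counts in 17 libraries and 0.256% in replicate 3 of ACPC-NP at week 2. That library stands apart: its normalisation factor was 0.706, against 0.950 to 1.11 in the others, and 3.51% of its counts came from the ferritin gene Fth1, against 0.129% to 0.467%. The main counts, medians and named differences that include it are given beside their values without it. The labelled tissue is bone, and osteoblast and marrow markers were both present. Haemoglobin Hbb alone gave 18032 to 59101 CPM (counts scaled to the size of the library). All 9 osteoblast markers tested passed the filter on low counts, but Col1a2 reached 10 counts in only 3 of the 18 libraries. It stood at 0.0427 to 0.552 CPM, where Col1a1 stood at 4373 to 25367. Among the markers looked for, the erythroid factor Gata1 and the lymphoid receptor Il7r were at 0 in all 18 libraries. The alpha globin entry Hba1, counted among the erythroid markers, stood at 1.46 to 8.95 CPM. Whether the values at or near 0 come from the tissue or from the counting of these genes was not tested. In bulk tissue, fewer dividing cells and less RNA per dividing cell cannot be told apart.

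Promoters are shown because mitotic and replication genes are known to be controlled through different elements. Of the 35 members 26 had an entry in the RefSeq promoter table (assembly GRCr8; the count files were aligned to Rnor_6.0, and no coordinates were carried between them). Windows of 300 bases, 250 before to 50 after each start, were searched on both strands for 3 motifs: the cell cycle homology region (CHR; TTTGAA or TTCGAA), the CCAAT box, and an E2F site (TTTCCCGC, TTTCGCGC, TTTGCCGC or TTTGGCGC). A CHR was in 62.5% of 16 mitotic promoters, in 30% of 10 replication promoters and in 19.7% of all 33469 promoters. An E2F site was in 6.25% of the mitotic promoters, in 60% of the replication promoters and in 2.14% of all. CCAAT boxes were common to both, in 75% and 80%, against 37.5% of all. Among the 12187 promoters of counted genes, a CHR was in 14.9%, an E2F site in 3.25% and a CCAAT box in 37.2%. A match is a description of letters in a window and not a measured binding site. The 250 bases before the start are printed 5′ to 3′ for 3 mitotic and 2 replication genes, in lower case with CHR, CCAAT and E2F matches in capitals.

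Plk1, GRCr8 chr1:186147408-186147657, plus strand: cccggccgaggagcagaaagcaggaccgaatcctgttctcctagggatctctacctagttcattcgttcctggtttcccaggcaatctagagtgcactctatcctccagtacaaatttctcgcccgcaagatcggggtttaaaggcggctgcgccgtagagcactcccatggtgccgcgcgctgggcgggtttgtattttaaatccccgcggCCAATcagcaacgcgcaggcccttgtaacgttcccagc
Cdc20, GRCr8 chr5:137255800-137256049, minus strand: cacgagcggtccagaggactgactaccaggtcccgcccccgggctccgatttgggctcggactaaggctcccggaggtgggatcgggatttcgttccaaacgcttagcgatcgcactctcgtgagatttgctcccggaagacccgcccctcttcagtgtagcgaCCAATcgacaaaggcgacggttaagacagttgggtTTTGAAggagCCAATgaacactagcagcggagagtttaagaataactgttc
Cdk1, GRCr8 chr20:19265043-19265292, plus strand: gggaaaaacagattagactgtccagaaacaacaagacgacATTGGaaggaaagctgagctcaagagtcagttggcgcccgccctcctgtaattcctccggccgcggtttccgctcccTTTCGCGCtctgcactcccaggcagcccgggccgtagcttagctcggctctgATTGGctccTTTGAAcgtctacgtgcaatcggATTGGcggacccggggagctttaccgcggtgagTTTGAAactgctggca
Mcm5, GRCr8 chr19:13488563-13488812, plus strand: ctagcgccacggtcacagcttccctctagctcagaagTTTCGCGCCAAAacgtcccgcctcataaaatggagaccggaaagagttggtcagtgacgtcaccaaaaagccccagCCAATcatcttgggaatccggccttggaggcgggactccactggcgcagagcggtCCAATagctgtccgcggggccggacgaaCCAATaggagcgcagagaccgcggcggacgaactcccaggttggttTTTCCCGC
Mcm6, GRCr8 chr13:42404353-42404602, minus strand: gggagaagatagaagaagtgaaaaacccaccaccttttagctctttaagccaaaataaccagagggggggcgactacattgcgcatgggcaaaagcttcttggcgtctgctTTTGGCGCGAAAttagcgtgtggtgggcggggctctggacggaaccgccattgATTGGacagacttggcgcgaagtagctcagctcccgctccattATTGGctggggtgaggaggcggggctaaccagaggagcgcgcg

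Plk1 has a CCAAT box in its window and its CHR lies after the start, outside the printed stretch. The Cdc20 promoter holds a CHR and 2 CCAAT boxes before the start. Cdk1 carries 2 CHRs, 3 CCAAT boxes and 1 E2F site, and is the only mitotic promoter of the 16 with an E2F match. Mcm5 and Mcm6, subunits of the helicase, have no CHR but 3 and 2 overlapping or separate E2F matches, beside 3 and 2 CCAAT boxes.

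Members were expressed in every library, and outside replicate 3 of ACPC-NP at week 2 the spread within a group was modest. Mki67, the proliferation antigen that coats mitotic chromosomes, stood at 1498, 1294 and 1381 CPM in the CaP libraries at week 2, at 1275, 1173 and 1291 in PCL and at 1486, 1209 and 535 in ACPC-NP. At week 6 the same gene gave 1192, 1283 and 1461 CPM around CaP, 1111, 1278 and 1236 around PCL and 1420.2, 1675 and 1279.6 around ACPC-NP. The third ACPC-NP library at week 2 was thus far below the other 17. At week 2 the lowest CaP library lay just above the highest PCL library, and at week 6 the lowest ACPC-NP library just above the highest PCL library. CPM is not divided by gene length, so levels are compared between libraries and not between genes. The median coefficient of variation over the 3 libraries of a group lay between 5.15% and 13.8% for mitotic members in 5 groups, and was 43.8% around ACPC-NP at week 2. Without replicate 3 of ACPC-NP at week 2 it was 14.7% there. Replication members gave 4.95% to 13.8% in those 5 groups and 36.2% around ACPC-NP at week 2, or 8.63% without that library. Tyms, thymidylate synthase, was the most variable replication member in 5 of 6 groups, at 12.1% to 50.1%.

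**Figure D1:**
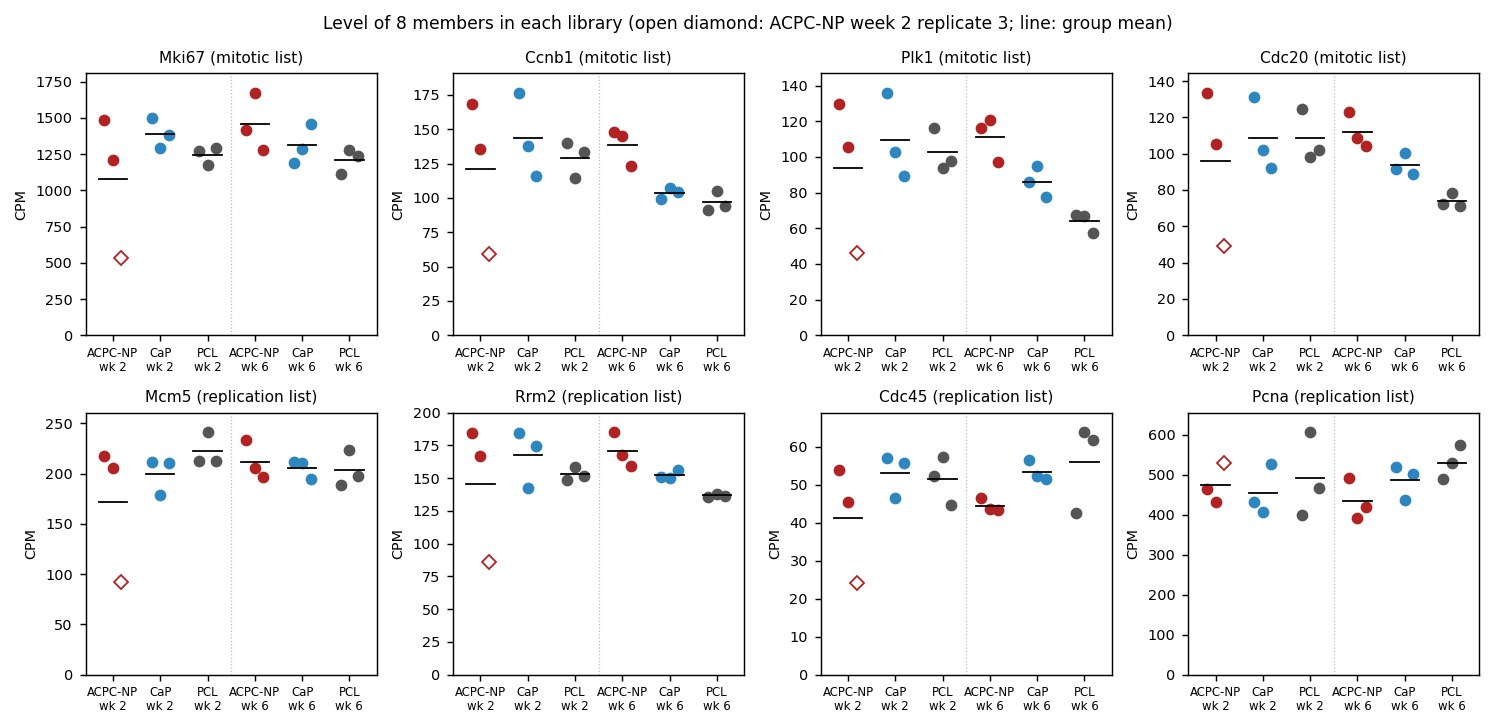
CPM (y axis, from 0 in each panel) of 8 members in each of the 18 libraries, by scaffold and week; points are single libraries, lines group means and the open diamond the third ACPC-NP library at week 2. The third ACPC-NP library at week 2 is the low point of that group in every panel but that of Pcna, as for Mki67 at 535 CPM against 1111 to 1675 in the others.

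In replicate 3 of ACPC-NP at week 2, 34 of the 35 members were lower than in each of the 17 other libraries: all 20 mitotic members and 14 of 15 replication members, against 20.9% of all genes tested. Set against the mean of replicates 1 and 2 of its group, mitotic members stood at a median of 42.4%, from 35.6% for Cenpf, a kinetochore protein, to 54.1% for Aurka, a spindle pole kinase. Replication members stood at a median of 49.5%, and all genes tested at 98.9%. The lowest replication member was Cdc6, which loads the helicase on origins, at 41.8%. Top2a, the topoisomerase that untangles sister chromatids, was at 302 CPM in replicate 3 of ACPC-NP at week 2 against 507 to 816 (median 669) in the other 17. Plk1, the polo-like kinase of mitotic entry, was at 46.3 CPM in replicate 3 of ACPC-NP at week 2 against 57.2 to 136 (median 97.0) in the other 17. Mcm2, a helicase subunit, was at 122 CPM in replicate 3 of ACPC-NP at week 2 against 203 to 267 (median 248) in the other 17. For Mcm5, another subunit, the values were 91.8 CPM in replicate 3 of ACPC-NP at week 2 against 179 to 242 (median 211) in the other 17. The library lay outside the range of the rest for all of these genes.

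Pcna, the sliding clamp of DNA polymerase and also a p53 target, was the exception, at 529 CPM in replicate 3 of ACPC-NP at week 2 against 392 to 607 (median 467) in the other 17, and at 118% of the mean of replicates 1 and 2. E2f1, the S-phase factor, followed at 65.1% of that mean. Ccng1, a cell cycle brake among the added lists, and Cdkn1a and Mdm2, picked after their values were seen, are also known targets of p53. Cdkn1a, the CDK inhibitor p21, stood at 674 CPM against 43.9 to 177 in the other 17. Ccng1, cyclin G1, was at 235 CPM against 74.5 to 121. Mdm2, the ubiquitin ligase of p53, was at 222 against 98.3 to 132. These 3 were above every other library there, as were 26.3% of all genes tested.

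Marker lists moved in the same library. A list score is the mean over a list's genes of log2 CPM after each gene was centred on the 18 libraries. The mitotic score was -1.02 there against -0.27 to 0.37 in the others, and the replication score -0.86 against -0.21 to 0.20. Erythroid markers (12 genes) scored -0.90 against -0.50 to 0.50, but their summed level of 29302 CPM lay within the 24857 to 74753 of the others. Granulocyte progenitor markers (6 genes) scored -0.90 against -0.59 to 0.81, with a summed 916 CPM against 1087 to 3817, and B progenitor markers (10 genes) -0.57 against -0.60 to 0.46, within the range of the rest. Monocyte and macrophage markers (9 genes) scored 1.29 against -0.49 to 0.43, while their summed 9484 CPM lay within the 5349.6 to 11913 of the others. The 10 immediate early genes, which respond to handling of fresh tissue, scored 2.08 against -0.93 to 0.48. The part of these lists in the low member levels was not tested.

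**Figure D2:**
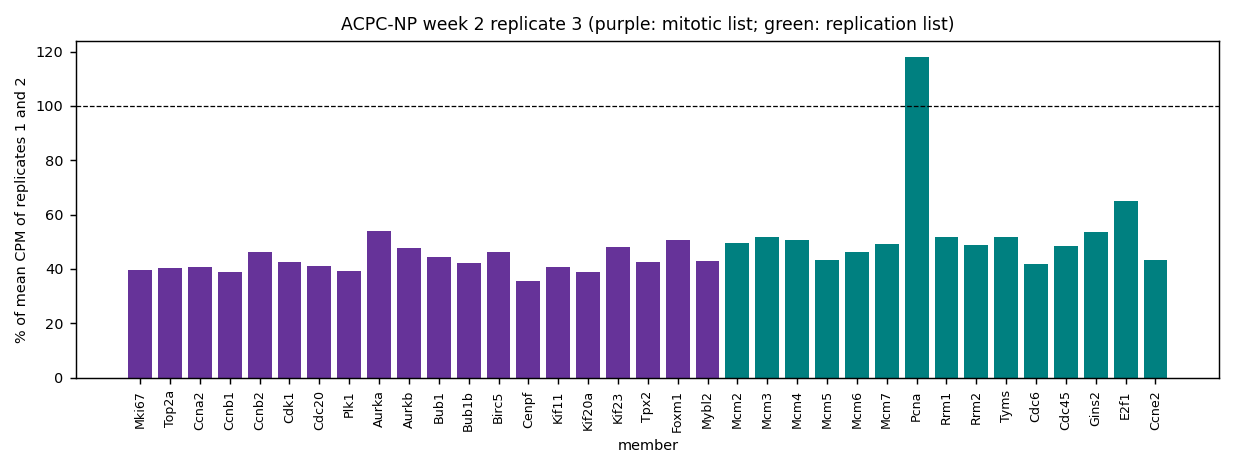
CPM of each of the 35 members in the third ACPC-NP library at week 2, as a percentage of the mean of replicates 1 and 2 of that group (bars from 0; dashed line at 100%). Mitotic members (purple) run from 35.6% to 54.1% and replication members (green) from 41.8% to 118%, with Pcna alone above the line.

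The study compared the nanoparticle scaffold with the other scaffolds, and its week 2 values depended on 1 library. All 20 mitotic and all 15 replication members had a negative fitted log2 difference for ACPC-NP against PCL, with medians of -0.17 and -0.29, where 47.9% of all genes tested lay above 0 with a median of -0.0147. None of the 35 passed the edgeR quasi-likelihood test with Benjamini-Hochberg adjustment over all 11814 genes, in which 0% of genes were called, and 0 members reached an unadjusted p under 0.05, against 15.7% of genes. DESeq2 and voom with quality weights called 0 members as well. Without replicate 3 of ACPC-NP at week 2, 19 of 20 mitotic members were above 0 with a median of 0.12, and 4 of 15 replication members with a median of -0.056.

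The smallest p among members belonged to Gins2, a subunit of the helicase's GINS complex, at 14.3, 14.2 and 7.64 CPM around ACPC-NP against 16.6, 14.3 and 16.7 around PCL. Its log2 difference was -0.39 ± 0.20 (SE, n = 3 in each group; edgeR adjusted p = 0.358), and -0.16 ± 0.14 without replicate 3 of ACPC-NP at week 2 (edgeR adjusted p = 0.951). Mcm5 stood at 218, 205 and 91.8 CPM around ACPC-NP and 213, 242 and 213 around PCL, a log2 difference of -0.37 ± 0.22. Mcm2 gave 262, 232 and 122 against 248, 259.7 and 262, a log2 difference of -0.32 ± 0.19. In both genes the third ACPC-NP library was the lowest of the 6. Without it the differences were -0.081 ± 0.11 and -0.062 ± 0.10.

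Against CaP at week 2, 0 of 20 mitotic members and 1 of 15 replication members lay above 0 around ACPC-NP, with medians of -0.26 and -0.24. None was called by edgeR, DESeq2 or voom, where edgeR called 0% of genes; Gins2 alone had an unadjusted p under 0.05, as did 15.7% of genes. Its CaP values were 19.2, 15.6 and 14.6 CPM, a log2 difference of -0.44 ± 0.20 (edgeR adjusted p = 0.288). Ccne2, cyclin E2 of the G1 to S transition, stood at 70.8, 55.3 and 27.2 CPM around ACPC-NP and 78.4, 67.0 and 70.8 around CaP, a log2 difference of -0.49 ± 0.25. Ccnb2, cyclin B2, gave 42.4, 33.1 and 17.5 against 47.9, 37.4 and 39.0, a log2 difference of -0.42 ± 0.22. Without replicate 3 of ACPC-NP at week 2 the differences of Gins2, Ccne2 and Ccnb2 were -0.21 ± 0.14, -0.20 ± 0.17 and -0.14 ± 0.14. In the same fit 11 of 20 mitotic and 7 of 15 replication members lay above 0, with medians of 0.021 and -0.026.

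CaP and PCL at week 2 gave small differences. The mitotic median of CaP against PCL was 0.10 with 16 of 20 above 0, and the replication median -0.00932 with 6 of 15. No member was called by edgeR (0% of genes), DESeq2 or voom, and 0 had an unadjusted p under 0.05 (1.55% of genes). Aurka had the smallest p, at 98.4, 81.3 and 75.7 CPM around CaP and 82.0, 72.8 and 74.1 around PCL, a log2 difference of 0.16 ± 0.18 (edgeR adjusted p = 0.9999). Cenpf and Birc5 followed at 0.24 ± 0.28 and 0.19 ± 0.23. The mitotic lean towards CaP rests on its first library: without CaP replicate 1, 8 of 20 lay above 0 with a median of -0.054. In ACPC-NP against the mean of the other scaffolds, edgeR called 4.99% of genes and 0 members, and Gins2 alone had an unadjusted p under 0.05 (19.3% of genes) with a log2 difference of -0.42 ± 0.17 (edgeR adjusted p = 0.2). The medians were -0.23 (0 of 20 above 0) and -0.28 (1 of 15), and 0.069 (16) and -0.024 (3) without replicate 3 of ACPC-NP at week 2; Gins2 was then at -0.19 ± 0.13. Ccne2 and Ccnb2 had the next smallest p, at -0.42 ± 0.22 and -0.34 ± 0.19, and stood at -0.13 ± 0.15 and -0.068 ± 0.12 without it. DESeq2 and voom called 0 members there too, and without that library edgeR called 0.0837% of genes and 0 members. Without replicate 1 of ACPC-NP instead, which leaves replicate 3 as 1 of 2 libraries, it called 3 members as lower (Birc5, Ccnb2 and Ccne2; 11.4% of genes), and 1 against CaP (Birc5; 7.47% of genes).

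At week 6 most mitotic members were higher around ACPC-NP than around PCL by values that did not pass the main test. The library that stands apart was in neither group, but it entered the spread that the fit shares between all groups. For ACPC-NP against PCL, 19 of 20 mitotic members lay above 0, with a median log2 difference of 0.30, where the median of all genes was -0.00675. Replication members stood at 11 of 15 above 0 with a median of 0.12. EdgeR called 0 members and 0% of genes; 3 members, all mitotic, had an unadjusted p under 0.05, against 21.9% of genes. DESeq2 called 1 member, Plk1, with a log2 difference of 0.81 and an adjusted p of 0.0436, against 6.01% of genes. Voom with quality weights called 12 members, against 34.2% of genes: Plk1, Cdc20, Tpx2, Ccnb1, Ccnb2, Ccna2, Cdk1, Aurka, Kif20a and Rrm2 as higher, and Cdc45 and E2f1 as lower. The ranges did not overlap and ACPC-NP was higher in 11 of 20 mitotic and 2 of 15 replication members, against 12.8% of genes tested.

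Plk1 had the smallest p of the members. It stood at 116, 120.4 and 97.0 CPM around ACPC-NP, at 85.7, 95.1 and 77.8 around CaP and at 67.4, 66.8 and 57.2 around PCL, with no overlap between the 3 groups. Against PCL the log2 difference was 0.80 ± 0.27 (edgeR adjusted p = 0.114). Cdc20, the activator of the anaphase-promoting complex, gave 123, 109 and 104 CPM around ACPC-NP, 91.3, 100.4 and 89.1 around CaP and 72.2, 78.6 and 71.2 around PCL, again in separate ranges. Its log2 difference against PCL was 0.60 ± 0.25 (edgeR adjusted p = 0.181). Tpx2, which activates Aurora A on spindle microtubules, gave 241, 234 and 214, then 209, 210.1 and 206, then 162, 179 and 147 CPM in the same order of scaffolds. Against PCL it differed by 0.49 ± 0.23 on the log2 scale (edgeR adjusted p = 0.223). With replicate 3 of ACPC-NP at week 2 left out of the shared fit, the differences of Plk1, Cdc20 and Tpx2 changed little but their errors fell. They stood at 0.82 ± 0.15, 0.61 ± 0.14 and 0.51 ± 0.10, and all 3 had an edgeR adjusted p of 0.0501.

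Among the other mitotic members, Cdk1, the kinase that drives entry into mitosis, stood at 146, 129.6 and 116 CPM around ACPC-NP and 84.6, 99.7 and 94.0 around PCL, a log2 difference of 0.49 ± 0.25. Ccnb1, its cyclin partner, gave 148, 145 and 123 against 91.3, 105 and 93.9 CPM, a difference of 0.52 ± 0.26. In both the ACPC-NP libraries lay above the PCL libraries without overlap. Aurkb, the kinase of the chromosomal passenger complex, gave 147, 135 and 119 against 107, 122 and 109 CPM, and its partner Birc5, survivin, 76.6, 66.6 and 62.4 against 52.9, 61.6 and 65.3. Their log2 differences were 0.25 ± 0.21 and 0.19 ± 0.23, and both overlapped. Mybl2, the B-MYB factor, stood at 177, 176 and 167 CPM around ACPC-NP and 120.5, 155 and 150.2 around PCL, where the first PCL library was the low one. Foxm1, a transcription factor of G2 and M genes, was the only mitotic member with a negative difference, -0.17 ± 0.20, at 71.1, 71.3 and 64.9 against 63.3, 91.4 and 78.7 CPM. The spindle checkpoint kinases Bub1 and Bub1b differed by 0.0056 ± 0.24 and 0.11 ± 0.25, and the motor proteins Kif11, Kif20a and Kif23 by 0.10 ± 0.24, 0.47 ± 0.27 and 0.12 ± 0.20. Cyclins A2 and B2 (Ccna2, Ccnb2) differed by 0.42 ± 0.25 and 0.46 ± 0.22, Aurka by 0.36 ± 0.18, Cenpf by 0.31 ± 0.28, Top2a by 0.16 ± 0.25 and Mki67 by 0.27 ± 0.25. Of the 20, those with separate ranges were Mki67, Ccna2, Ccnb1, Ccnb2, Cdk1, Cdc20, Plk1, Aurka, Kif20a, Tpx2 and Mybl2.

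Replication members at week 6 showed smaller differences in both directions. Rrm2, the regulated subunit of ribonucleotide reductase, stood at 185, 168 and 159 CPM around ACPC-NP, 151, 150.1 and 156 around CaP and 136, 138 and 137 around PCL, in separate ranges, with a log2 difference against PCL of 0.32 ± 0.20. Mcm2 gave 267, 245 and 247 around ACPC-NP and 203, 249 and 221 around PCL, a difference of 0.17 ± 0.19. Cdc6 gave 73.1, 74.1 and 70.4 against 46.6, 75.7 and 78.3, a difference of 0.12 ± 0.26, with the first PCL library below the rest. In Mcm2 and Cdc6 the ranges overlapped. Cdc45, which completes the active helicase, gave 46.4, 43.5 and 43.2 against 42.4, 63.8 and 61.8, a difference of -0.34 ± 0.22. E2f1 gave 48.5, 42.9 and 45.0 against 42.7, 62.8 and 56.5, a difference of -0.25 ± 0.18. Pcna, at 492, 392 and 419 against 488, 529.9 and 573 CPM, differed by -0.29 ± 0.16. These 3 lay lower around ACPC-NP by their fitted values, with overlapping ranges. Tyms ranged from 47.4 to 86.5 CPM within PCL alone, and its difference was 0.24 ± 0.34. The helicase subunits Mcm3, Mcm4, Mcm5, Mcm6 and Mcm7 differed by 0.11 ± 0.18, -0.10 ± 0.19, 0.060 ± 0.22, 0.071 ± 0.22 and 0.12 ± 0.21. Rrm1, the large reductase subunit, differed by 0.12 ± 0.19, Gins2 by 0.31 ± 0.20 and Ccne2 by 0.12 ± 0.25. The replication members with separate ranges were Rrm2 and Gins2.

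The first PCL library at week 6 was low in many members and bears on the replication count. Without it, the replication median of ACPC-NP against PCL was -0.0092 with 6 of 15 above 0, and the mitotic median 0.22 with 17 of 20. EdgeR then called 15% of genes and 0 members. Scaling matters too: with library sizes alone in place of the trimmed-mean factors, the median of all genes was -0.0954, the mitotic median 0.20 (18 of 20 above 0) and the replication median 0.0142 (9 of 15).

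Against CaP at week 6, ACPC-NP had a mitotic median of 0.18 with 16 of 20 above 0, and a replication median of 0.061 with 11 of 15. No member was called by edgeR (0% of genes), DESeq2 or voom, and 0 had an unadjusted edgeR p under 0.05 (9.34% of genes). Ranges were separate and higher around ACPC-NP in 9 mitotic and 4 replication members, against 12.3% of genes, and lower in 2 replication members, against 12.5%. Ccnb1 had the smallest p, at 99.1, 107 and 104 CPM around CaP, a log2 difference of 0.42 ± 0.26 (edgeR adjusted p = 0.609). Aurka and Gins2 came next, at 0.26 ± 0.18 and 0.28 ± 0.20. With library sizes alone, the replication count above 0 was 4 of 15 and the median turned to -0.040, where all genes had a median of -0.0969.

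CaP lay between the other scaffolds at week 6 for many mitotic members. CaP against PCL gave a mitotic median of 0.11 with 19 of 20 above 0 and 6 in separate ranges, against 3.99% of genes; the replication median was 0.026. Without PCL replicate 1 the mitotic members stood at 16 of 20 with a median of 0.052, and the replication members at 2 of 15 with a median of -0.069. EdgeR called 0 members and 0% of genes, DESeq2 and voom called 0 members, and 0 had an unadjusted edgeR p under 0.05 (2.57% of genes). Plk1, Tpx2 and Cdc20 had the smallest p, with log2 differences of 0.43 ± 0.27, 0.36 ± 0.23 and 0.34 ± 0.25. The full order of ACPC-NP above CaP above PCL, with no overlap at either step, was met by 6 of 20 mitotic members (Ccnb2, Cdk1, Cdc20, Plk1, Aurka and Tpx2) and by 1 of 15 replication members (Rrm2), where 1.13% of all genes tested met it. This count was chosen after the values were seen. With the other scaffolds averaged, edgeR called 0 members and 0% of genes, Plk1 alone had an unadjusted p under 0.05 (20.5% of genes), DESeq2 called 0 members and voom 12 (29.3% of genes). A fit of the 3 week 6 groups alone called 4 members (Ccnb1, Ccnb2, Cdc20 and Plk1; 2.74% of genes). In the fit of all groups the Plk1 difference was 0.58 ± 0.22 (edgeR adjusted p = 0.167), followed by Ccnb1 at 0.47 ± 0.22 and Aurka at 0.31 ± 0.15.

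**Figure D3:**
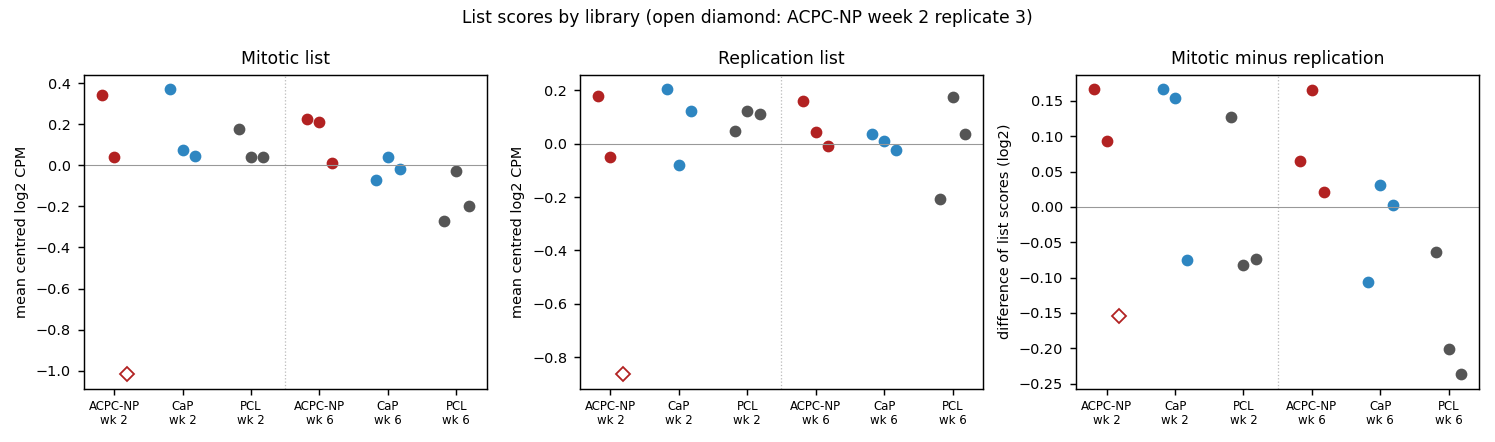
List scores (mean centred log2 CPM, y axis) of the mitotic and replication members, and the first minus the second, in each of the 18 libraries, by scaffold and week; points are single libraries. At week 6 the mitotic scores of ACPC-NP are 0.22, 0.21 and 0.011, above those of PCL at -0.27, -0.026 and -0.20; the low point at week 2 is the third ACPC-NP library at -1.02 (mitotic) and -0.86 (replication).

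The balance between mitotic and replication genes was also read per library. The mitotic score minus the replication score was 0.065, 0.17 and 0.021 in the ACPC-NP libraries, -0.11, 0.030 and 0.0023 around CaP and -0.064, -0.20 and -0.24 around PCL. The ACPC-NP values were all above the PCL values. At week 2 the same quantity was 0.17, 0.093 and -0.15 around ACPC-NP, 0.17, 0.15 and -0.076 around CaP and 0.13, -0.083 and -0.073 around PCL. The week 2 groups overlapped. These differences were not tested, since the members were chosen with results known.

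Erythroid markers, like many mitotic members, were higher around ACPC-NP at week 6, but they did not separate CaP from PCL. Their summed level was 55482 to 74753 CPM around ACPC-NP, 29026 to 40725 around CaP and 26006 to 41278 around PCL. ACPC-NP thus lay above both without overlap, while CaP and PCL overlapped. Hbb alone gave 43702 to 59101 CPM of the sum around ACPC-NP. All 12 tested erythroid markers had a positive difference against PCL, with a median of 0.73, and 10 had separate ranges, against 12.8% of genes; edgeR called none of them. The 12 include Hba1, near the floor at 8.16, 1.81 and 8.95 CPM around ACPC-NP and 4.94, 3.80 and 7.81 around PCL. Klf1, the erythroid transcription factor, stood at 302, 296 and 269 CPM around ACPC-NP and 197, 158 and 214 around PCL. Gata1 was at 0 in every library. Granulocyte progenitor markers were above 0 in 5 of 6 (median 0.35; summed 1882 to 3405 CPM against 1087 to 3817), and B progenitor markers in 1 of 10 (median -0.64; 1140 to 1500 against 1191 to 2834). Osteoblast markers were above 0 in 2 of 9, with a median of -0.84. The score of mature neutrophil markers (8 genes) was 0.084 to 0.53 around ACPC-NP, -0.24 to 0.089 around CaP and -0.76 to 0.48 around PCL. The part of these cell types in the mitotic differences was not tested.

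Between weeks 2 and 6 the members around CaP and PCL pointed down and those around ACPC-NP up; the second direction rested on replicate 3 of ACPC-NP at week 2. Around PCL 1 of 20 mitotic members lay above 0 at week 6 against week 2, with a median of -0.21, and 4 of 15 replication members, with a median of -0.13. Without PCL replicate 1 of week 6 these were 4 of 20 with a median of -0.14 and 6 of 15 with a median of -0.040. In 10 of 20 mitotic and 1 of 15 replication members the week 6 libraries were all below the week 2 libraries, against 6.7% of genes. EdgeR called 0 members and 0% of genes, DESeq2 0 members and voom 5 (14.7% of genes), and 2 members had an unadjusted edgeR p under 0.05 (9.87% of genes). These were Plk1, at 116, 93.8 and 97.7 CPM at week 2 and a log2 difference of -0.69 ± 0.27 (edgeR adjusted p = 0.445), and Cdc20, at 125, 98.4 and 102 CPM at week 2 and -0.55 ± 0.25 (edgeR adjusted p = 0.488). Kif20a, a kinesin of cytokinesis, came next at -0.49 ± 0.27.

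Around CaP, 1 of 20 mitotic members lay above 0, with a median of -0.19, and 5 of 15 replication members, with a median of -0.046. Without CaP replicate 1 of week 2 the mitotic members stood at 3 of 20 with a median of -0.066, and the replication members at 8 of 15 with a median of 0.0074. Without CaP replicate 1 of week 6 the mitotic median was -0.11. Week 6 was below week 2 without overlap in 6 mitotic members, against 7.93% of genes. None was called by edgeR (0% of genes), DESeq2 or voom, and 0 had an unadjusted edgeR p under 0.05 (4.82% of genes). Ccnb1 stood at 177, 138 and 116 CPM at week 2 and 99.1, 107 and 104 at week 6, a log2 difference of -0.47 ± 0.26. Gins2 and Ccnb2 followed at -0.29 ± 0.20 and -0.32 ± 0.22. Erythroid markers around CaP were also below 0, in 12 of 12 with a median of -0.38; around PCL their median was -0.15. Their part in these values was not tested.

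Around ACPC-NP all 20 mitotic members and 14 of 15 replication members lay above 0, with medians of 0.25 and 0.25. Without replicate 3 of ACPC-NP at week 2 the counts were 8 of 20 and 7 of 15, and the medians -0.031 and -0.00316. EdgeR called 0.00846% of genes and 0 members with it, DESeq2 called 0 members and voom 1 (Ccne2; 11.4% of genes), and Ccne2 and Gins2 had an unadjusted edgeR p under 0.05 (19.8% of genes). Ccne2 stood at 77.2, 83.1 and 65.8 CPM at week 6, a log2 difference of 0.56 ± 0.25 (edgeR adjusted p = 0.228), and 0.28 ± 0.17 without replicate 3 of ACPC-NP at week 2. Gins2 differed by 0.44 ± 0.20 and Mybl2 by 0.44 ± 0.23, and by 0.22 ± 0.14 and 0.16 ± 0.13 without that library. Ccne2 was called without replicate 1 of ACPC-NP at week 2 (7.38% of genes). Over the 3 scaffolds together the mitotic median was -0.058 with 6 of 20 above 0, and -0.14 with 2 of 20 without that library, while without replicate 1 of ACPC-NP at week 2 it was 0.050. Replication members had a median of 0.027 (10 of 15), and -0.048 (5 of 15) without replicate 3. EdgeR called 0.686% of genes and 0 members there, DESeq2 0 and voom 3 (13.7% of genes), and 0 members had an unadjusted edgeR p under 0.05 (14.6% of genes). Plk1, Ccnb1 and Kif20a had the smallest p, at -0.26 ± 0.15, -0.23 ± 0.15 and -0.23 ± 0.16, and stood at -0.36 ± 0.090, -0.33 ± 0.082 and -0.33 ± 0.093 without that library.

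Whether the scaffold differences changed between the weeks was tested as an interaction. For ACPC-NP against PCL all 20 mitotic members had a positive interaction with a median of 0.50, and 13 of 15 replication members with a median of 0.41. Without replicate 3 of ACPC-NP at week 2 these were 19 of 20 with a median of 0.26 and 11 of 15 with a median of 0.15. EdgeR called 0 members and 0% of genes, DESeq2 0 members and voom 5 (16.3% of genes), and 4 members had an unadjusted edgeR p under 0.05 (15% of genes). Plk1 gave 0.93 ± 0.38 on the log2 scale (edgeR adjusted p = 0.299), and 0.63 ± 0.23 without that library (edgeR adjusted p = 0.57). Gins2 gave 0.70 ± 0.28 and 0.48 ± 0.19 in the same way, and Ccnb2 0.73 ± 0.31 and 0.47 ± 0.18. Against CaP the medians were 0.51 (20 of 20 above 0) and 0.31 (14 of 15), and 0.20 (15) and 0.061 (10) without it; edgeR called 0 members and 0% of genes, DESeq2 and voom 0 members, and 3 members had an unadjusted edgeR p under 0.05 (14.2% of genes). Those were Gins2 at 0.72 ± 0.28, Ccne2 at 0.81 ± 0.35 and Ccnb2 at 0.72 ± 0.31, which stood at 0.49 ± 0.19, 0.51 ± 0.23 and 0.44 ± 0.18 without the library. For CaP against PCL the medians were 0.050 and 0.027; 0 members were called by edgeR (0% of genes), DESeq2 or voom, and 0 had an unadjusted edgeR p under 0.05 (1.68% of genes). Ccne2, Cdc20 and Plk1 had the smallest p there, at -0.35 ± 0.35, 0.34 ± 0.35 and 0.34 ± 0.37. The interactions share libraries with the comparisons above and with each other.

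**Figure D4:**
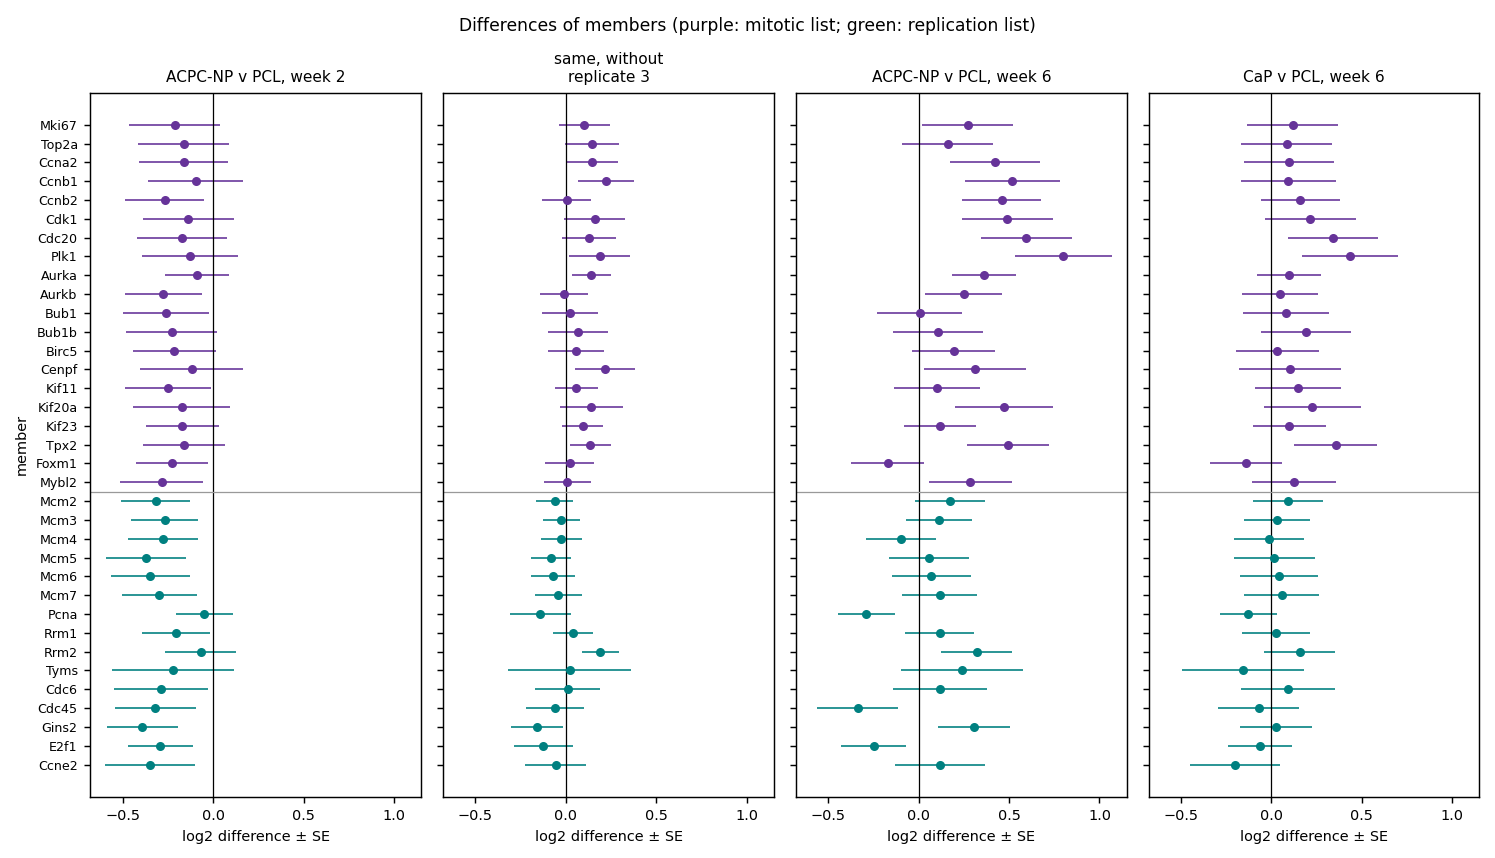
Fitted log2 differences (x axis) with standard errors for each of the 35 members, in 4 panels: ACPC-NP against PCL at week 2 with and without the third ACPC-NP library, ACPC-NP against PCL at week 6, and CaP against PCL at week 6. Values of ACPC-NP against PCL lie below 0 for all 35 members at week 2 with that library; without it 19 of 20 mitotic and 4 of 15 replication members lie above 0. At week 6 they lie above 0 for 19 of 20 mitotic members, led by Plk1 at 0.80.

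Further cell cycle genes, listed by function, were read in the same way. Of 42 other mitotic genes 38 lay above 0 for ACPC-NP against PCL at week 6, with a median of 0.20, and 13 had separate ranges with ACPC-NP higher, against 12.8% of genes. Of 45 other replication genes 25 lay above 0, with a median of 0.00917. EdgeR called none of either list in that comparison. Cdc25b, the phosphatase that activates CDK1, stood at 2063, 2202 and 1543 CPM around ACPC-NP and 1173, 1096 and 1194 around PCL (0.75 ± 0.24 on the log2 scale; edgeR adjusted p = 0.101). Ube2c, which tags cyclin B for destruction, differed by 0.81 ± 0.32 (edgeR adjusted p = 0.161). Tk1, the thymidine kinase of S phase, gave 283, 279 and 249 against 169, 172 and 169 CPM, and Rfc3, a subunit of the clamp loader, 84.8, 72.6 and 87.9 against 81.4, 133 and 169.7. Tk1 was higher around ACPC-NP without overlap, and for Rfc3 the first PCL library lay within the ACPC-NP range.

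Genes that start or stop the cycle gave 1 call. Of 9 genes of G1 entry 5 lay above 0 for ACPC-NP against PCL at week 6, with a median of 0.063; Myc stood at 69.9, 66.5 and 64.5 CPM against 54.2, 36.1 and 37.4, in separate ranges. Of 16 brakes on the cycle 8 lay above 0, with a median of -0.13. Cdkn2b, the CDK4 and CDK6 inhibitor p15, gave 17.9, 12.3 and 9.16 CPM around ACPC-NP and 7.02, 3.25 and 4.58 around PCL, a log2 difference of 1.41 ± 0.34 (edgeR adjusted p = 0.0783). Cdkn1b, the inhibitor p27, gave 233, 237 and 241 against 262, 300.1 and 316. Among the genes of these added lists, the call was Ccng1 at week 2, which rose by 0.77 ± 0.18 around ACPC-NP against the mean of the other scaffolds (edgeR adjusted p = 0.0283), where edgeR called 4.99% of genes. Its ACPC-NP values were 115, 121 and 235 CPM, with 82.2 to 99.7 in the other scaffolds at week 2. Without replicate 3 of ACPC-NP at week 2 it was 0.35 (edgeR adjusted p = 0.466).

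**Figure D5:**
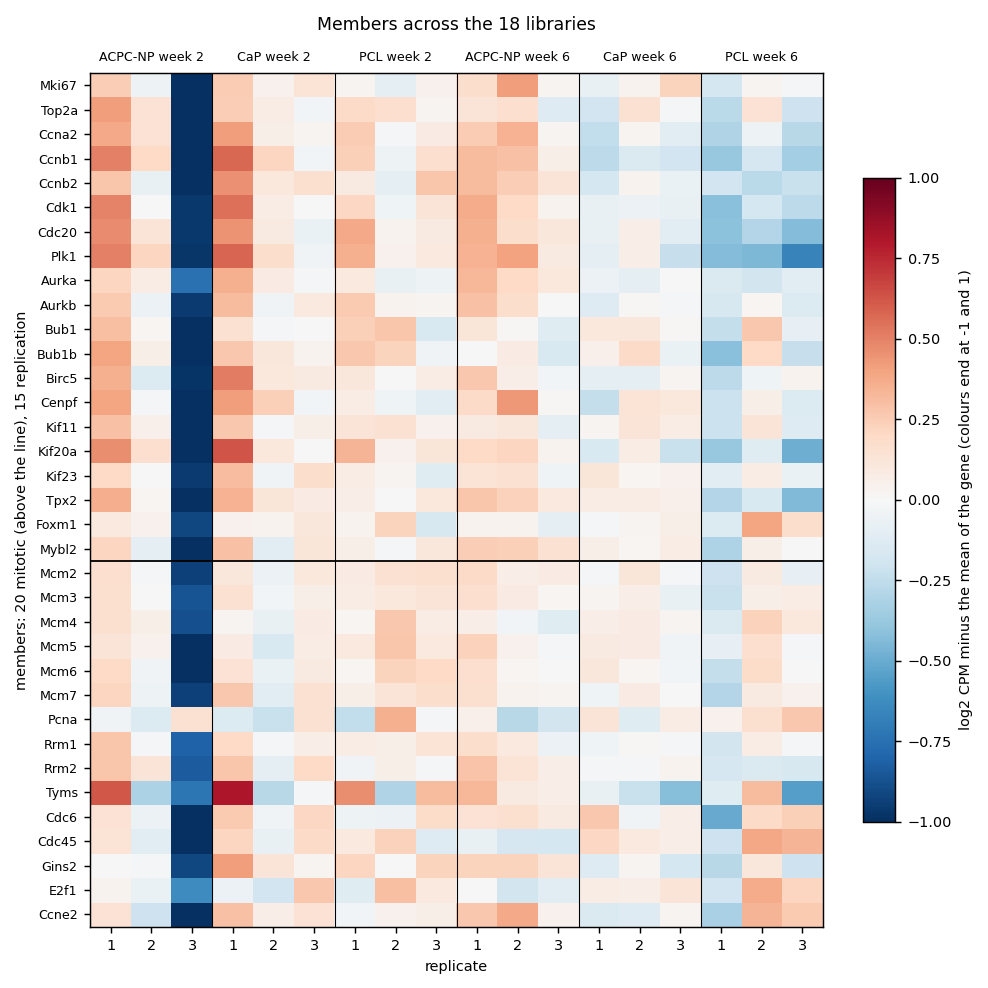
Centred log2 CPM of the 35 members (rows, mitotic above replication) in the 18 libraries (columns, by scaffold and week); colours end at -1 and 1. The column of the third ACPC-NP library at week 2 is low in all members but Pcna, which stood there at 118% of the mean of replicates 1 and 2.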

How the data were processed

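Polyadenylated RNA was measured in 18 libraries, 3 for each of 3 scaffolds at 2 times. The authors deposited a table of counts of reads per gene symbol, raw and without coordinates. Per the submitters' processing notes, the tools were bcl2fastq 2.20.0, STAR 2.7.9a, Subread 2.0.1 and featureCounts, and the build was Rnor_6.0; the annotation and the strand setting were not given in the sources used here, nor were any filters. A second deposited table of normalised values was not used.

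From the counts, edgeR 4.0.16 in R 4.3.3 was run with TMM factors and filterByExpr (minimum count 10, minimum total 15), which kept 11814 genes with 99.98% of counts. One robust quasi-likelihood model held 6 group means over the 18 libraries (12 residual and 2.92 prior degrees of freedom; common biological coefficient of variation 26.0%), so a library left out of one group also moves the spread used for the others. P-values were adjusted by Benjamini-Hochberg over all genes in each of 15 comparisons, with a threshold of 0.05. CPM used TMM-scaled library sizes, and log2 CPM for list scores a prior count of 2. Totals were 18880604 to 27186587 counts, and the lowest count of a member was 136. Counting error was not set against the spread between libraries, which was as small as 0.60% for Cdk1 around CaP at week 6. No 2 libraries of a group were duplicates: every pair differed in its counts, with a chi-square of at least 31.9 per degree of freedom. The test was tried on simulated data before use.

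The members and the added lists were chosen with earlier results of these data known, so no p-value was computed over a list. Of 273 list entries, 249 matched the table, 3 of them by an older symbol. Values per library are given mainly for a panel picked by role, and in each comparison the 3 members of smallest p are named; other members are given by fitted difference or count. From each added list at most 3 genes of smallest p in each direction are named, and Cdkn1a, Mdm2, Myc, Klf1 and Cdkn1b were singled out after their values were seen. Alternatives were DESeq2 1.42.0, its size factors used in edgeR, voom with quality weights (limma 3.58.1), every gene kept whatever its count, the replicate number as a block, only the groups compared, each library left out in turn and, added after the data were seen, library sizes alone.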

Additional observations from a re-analysis of the deposited data

Results flagged for a closer look

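Among the 9 libraries of each week, the gap between the farthest library and its nearest neighbour was compared with the range of all 9 for 19 members and the 2 list scores, 42 tests in all; chance flags about 1 in 20. At week 2, 14 of 21 passed the limit of 0.493, each time with replicate 3 of ACPC-NP lowest. Its values were 535 CPM for Mki67, 302 for Top2a, 49.2 for Cdc20, 61.6 for Aurkb, 37.1 for Foxm1 and 67.7 for Mybl2 among mitotic members. Among replication members it stood at 122 CPM for Mcm2, 91.8 for Mcm5, 85.7 for Rrm2, 28.6 for Cdc6, 24.1 for Cdc45 and 27.2 for Ccne2. The mitotic score was -1.02 and the replication score -0.86. These flags come from 1 library and members that move together, so they are not separate observations.

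At week 6, 2 of 21 passed, both with replicate 1 of PCL lowest: Mybl2 at 120.5 CPM and Cdc6 at 46.6 CPM.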

How the results depend on the processing

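With 3 libraries a group and a wide common spread, members that differed by more than their fitted errors were also not called. For ACPC-NP against PCL at week 6, Plk1 at 0.80 ± 0.27 on the log2 scale had an edgeR adjusted p of 0.114. No member was called in the main fit, so no call could reverse. Of the 231 recomputed counts of called members, 220 were the same and 11 were higher than the main count of 0. For ACPC-NP against PCL at week 6, DESeq2 called 1 member (6.01% of genes) and voom with quality weights 12 (34.2% of genes). For ACPC-NP against the mean of the others at week 6, voom called 12 (29.3% of genes). A fit of the groups compared alone called 4 (Ccnb1, Ccnb2, Cdc20 and Plk1; 2.74% of genes). For week 6 against week 2, voom called 1 member around ACPC-NP (11.4% of genes), 5 around PCL (14.7%) and 3 over the 3 scaffolds (13.7%). In the interaction of ACPC-NP against PCL with week it called 5 (16.3% of genes). The cause was not tested. Leaving out each library in turn gave 0 to 1 called members for ACPC-NP against CaP at week 2, 0 to 3 for ACPC-NP against the mean of the others at week 2 and 0 to 1 for week 6 against week 2 around ACPC-NP. The nonzero counts came without replicate 1 of ACPC-NP at week 2, where replicate 3 is 1 of the 2 left. In the same order they were Birc5 (edgeR adjusted p = 0.0400; 7.47% of genes), then Birc5, Ccnb2 and Ccne2 (11.4%), then Ccne2 (7.38%). In the other comparisons every such count was 0.

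List medians, none with a test, were less stable: of 462 recomputed medians 20 had another sign than in the main fit (8 mitotic, 12 replication). Mitotic medians of ACPC-NP at week 2 became 0.021 against CaP and 0.069 against the mean of the others without replicate 3, and that of week 6 against week 2 around ACPC-NP became -0.031. The mitotic median of CaP against PCL at week 2 went from 0.095 to -0.054 without CaP replicate 1, and that of its interaction with week from 0.050 to -0.020 and -0.0018 without CaP replicate 2 or 3 of week 2. Replication medians at week 6 became -0.040 for ACPC-NP against CaP and -0.011 against the mean of the others with library sizes alone, and -0.0092 against PCL without PCL replicate 1. The mitotic median of ACPC-NP against PCL at week 2 was -0.49 without replicate 1 of ACPC-NP and 0.12 without replicate 3. With voom, which weights libraries by their quality, 8 of 20 mitotic members lay above 0 there, with a median of -0.029. Library sizes alone moved the median of all genes to -0.16 for ACPC-NP against PCL at week 2 and -0.095 at week 6.

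Replicate numbers are shared between groups, but nothing in the labels says that a number marks a shared animal or day. Of 45 pairs of same-numbered libraries 18 had deviations from their group means that correlated above 0.1 (from -0.33 to 0.42), and 8 of 18 libraries correlated best with their own number. With the replicate number as a block, edgeR called 0 members in each of the 15 comparisons. Over all genes it then called 427 for ACPC-NP against PCL at week 6, against 0 without the block, and 239 for ACPC-NP against the mean of the others at week 2, against 590.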
